A study of Mus musculus with 8 samples.

Results

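The step from e16.5 to e17.5 (embryonic days) in forming mouse fat was described from a pair of arrays out of a series of 8. The series profiled developing white adipose tissue of C57BL/6 mice at e15.5, e16.5, e17.5, e18.5, P0, P2, P5 and P12 (postnatal days), with 1 array per stage. The 2 arrays set against each other here are e17.5 and e16.5. No treatment, allele or transgene is given for any stage, and every pool shares the C57BL/6 strain. RNA of several embryos was mixed before hybridization to an Illumina MouseRef-8 BeadChip. The labels put at least 3 embryos in a pool in one place and 4 in another, and they do not give the fat depot. Each stage therefore rests on 1 pool, no spread can be estimated, and a difference between the pools cannot be told apart from a difference between the stages. No test was run and no p-value is given for any value below.

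White fat cells form when mesenchymal progenitors leave the cell cycle and turn on PPAR-gamma and C/EBP-alpha, the regulators that drive the fat cell programme. A first wave of genes gives the cell its identity. The cell then gains the machinery to make fatty acids, join them to glycerol as triglyceride, coat the resulting droplet with perilipins and CIDE proteins, and release the fat again by lipolysis. In mice the subcutaneous depots begin this before birth, and the stored lipid becomes visible around and after birth.

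Members were features with a level of 7.5 or more at e17.5 or at e16.5. Levels are the deposited log2 intensities, on which 1 unit is a 2-fold difference and which have a floor near 6.7. Of 25697 probes, 8720 met this minimum. With 1 probe per gene they gave 6993 of 18312 features, of which 6506 were named genes and 487 were probes unnamed here. Of the 6993 features, 166 (2.37%) were higher at e17.5 by 1 log2 or more, and 44 (0.629%) were lower by as much. Counted as probes, 198 of the 8720 (2.27%) were higher and 47 (0.539%) lower. The higher features included 22 that differed by 2 log2 or more and 4 by 3 or more. Among the lower ones 14 differed by 2 log2 or more and 6 by 3 or more. The level was under 7.5 at e16.5 for 21 of the higher features and under 7.5 at e17.5 for 24 of the lower.

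Most features lay close to the line of equal levels, as the plot of both arrays shows. The median difference over all 6993 was -0.06, the 5th percentile -0.49, the 95th 0.66 and the 99th 1.36. Above 0 were 2885 features (41.3%) and below 0 4093 (58.5%), the shares against which counts of list members above or below 0 are read. Counts of list members past 1 log2 are read against 2.37% higher and 0.629% lower over all features. The neighbouring steps share an array with this one and are given only for scale. Between e16.5 and e15.5, 94 features (1.31%) were higher at e16.5 and 324 (4.52%) lower. Between e18.5 and e17.5, 156 (2.23%) were higher at e18.5 and 34 (0.486%) lower. Nearest the limit of 1 log2, Slc13a4 (1.0045) and Gsn (1.0061) lay just inside on the higher side and Mtch2 (0.9974) just outside. On the lower side Ccl21a (-1.0009) and Serpina1d (-1.0081) lay just inside and Ttr (-0.997) just outside.

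**Figure D1:**
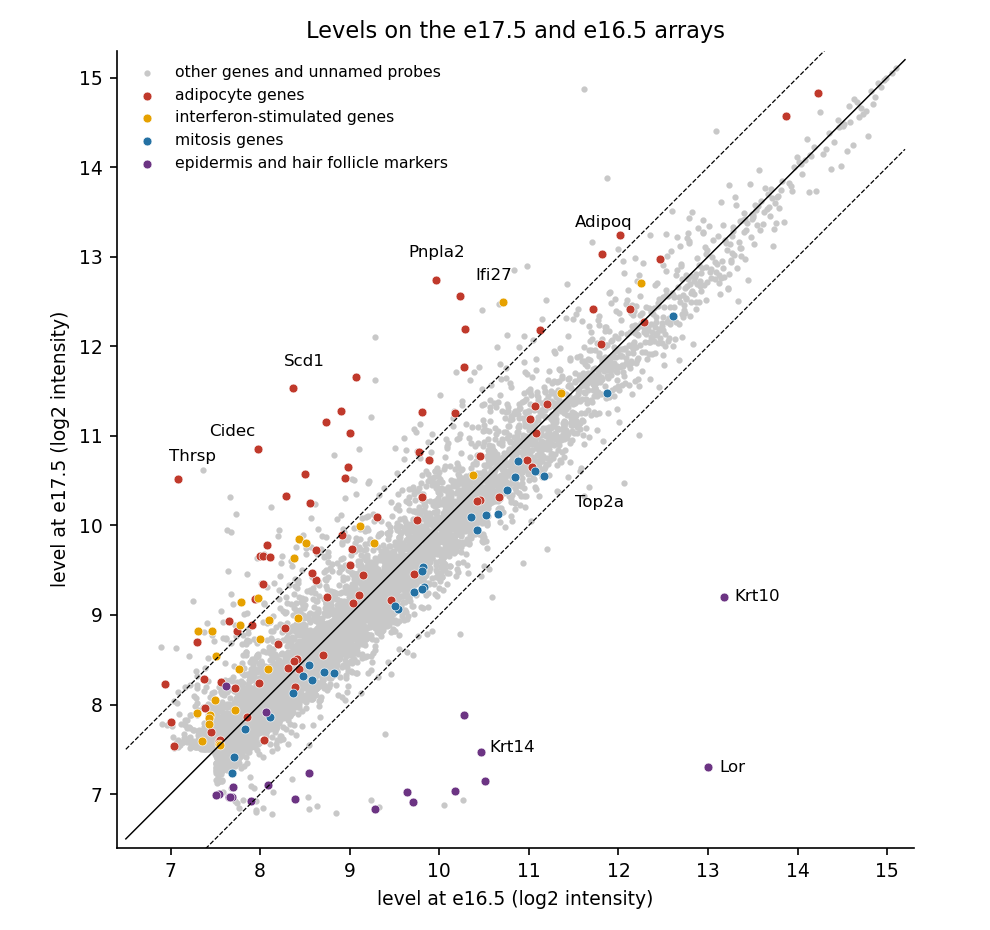
Level of each of the 6993 features at e17.5 (vertical axis, log2 intensity) against its level at e16.5 (horizontal axis, log2 intensity), 1 pool per stage, with the line of equal levels solid and differences of 1 log2 dashed. Above the upper dashed line lie 33 of 86 adipocyte genes, Scd1 and Pnpla2 among them, and 10 of 29 interferon-stimulated genes, Ifi27 among them. Mitosis genes lie between the solid and the lower dashed line, and Lor, Krt10 and Krt14 lie far below.

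The name adipocyte onset for this step goes partly against the levels, because defining fat cell genes were already high at e16.5. Adipoq, the gene of the hormone adiponectin, read 8.43, 11.81 and 13.04 at e15.5, e16.5 and e17.5. Pparg, the gene of PPAR-gamma, read 9.09, 10.95 and 11.83 at the same stages. Lpl, which frees fatty acids from circulating lipoproteins, had 14.57 at e17.5, against 13.87 at e16.5. The larger difference for Adipoq and for Pparg was thus the one between e16.5 and e15.5. Muscle markers averaged 9.05 at e16.5, against 12.74 at e15.5, and their part in that earlier difference was not tested. Lipid-storing and oxidative genes were among those higher at e17.5 by 1 log2 or more, and skin genes among those lower. Some standard markers could not be read: the named probes of Fabp4 (6.92 at e17.5 and 6.78 at e16.5), Cd36 (6.85 and 6.88), Fasn (7.14 and 6.99) and Retn (7.30 and 6.92) stayed under 7.5 at both stages. The named Fabp4, Cd36 and Fasn probes did not reach 7.5 at any of the 8 stages, so they give no level for these genes.

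Transcription regulators of adipogenesis differed little as a list, and the members past 1 log2 were those that control lipid synthesis. Of 41 on the array, 10 were under 7.5 at both stages. Of the 31 kept, 3 were higher by 1 log2 or more and none lower, with a median of -0.11 beside -0.06 over all features. Srebf1, which switches on fatty acid synthesis genes, had 9.64 at e17.5, against 8.11 at e16.5 (2.90-fold). Nr1h3, the oxysterol receptor LXR-alpha, had 10.51 at e17.5, against 9.05 at e16.5 (2.75-fold). Mlxipl, the glucose-responsive factor ChREBP, had 9.35 at e17.5, against 8.03 at e16.5 (2.49-fold). All 3 act on lipogenic genes. Differences of the fat cell identity factors were under 1 log2: Pparg differed by 0.88, Cebpb by 0.45 and Cebpa by 0.37. Of the 31 kept, 17 were below 0 and 14 above, where 58.5% of all features were below. Gata2 and Klf2, which hold back fat cell formation, were among the 17. Gata2 had 9.48 at e17.5, against 10.21 at e16.5, and Klf2 had 8.65, against 9.08. Klf4 was lower too, at 8.30 at e17.5, against 8.96 at e16.5, so the lower members were not only such repressors. Gata2 is also in the mast cell list, whose median was -0.19. The co-activator Ppargc1b, which supports mitochondrial gene expression, had 9.40 at e17.5, against 8.39 at e16.5.

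Over 5 lists of adipocyte genes together, for droplet proteins, triglyceride synthesis, fatty acid uptake, fatty acid synthesis and secreted products, 126 genes were on the array and 40 were under 7.5 at both stages. Of the 86 kept, 33 were higher by 1 log2 or more and none lower, and 73 were above 0. Their median difference was 0.70, beside -0.06 over all features, and with no minimum level it was 0.25 over all the genes on the array. The mean level of the 86 kept was 10.11 at e17.5, against 9.24 at e16.5. The lists differed widely among themselves.

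Genes of the lipid droplet and of lipolysis were among those with the largest differences. Of 22 droplet proteins on the array, 3 were under 7.5 at both stages and 19 were kept. Of the 19, 9 were higher by 1 log2 or more and none lower, with a median difference of 0.91. Cidec, which fuses small droplets into large ones, had 10.85 at e17.5, against 7.98 at e16.5 (7.31-fold). Over the 8 stages it read 6.89, 7.98, 10.85, 11.94, 11.72, 11.91, 9.60 and 9.26, so it was near the floor only at e15.5. Plin4, a droplet coat protein, had 11.16 at e17.5, against 8.74 at e16.5 (5.34-fold). Plin1, the coat protein that gates access of lipases to the droplet, had 8.93 at e17.5, against 7.65 at e16.5 (2.43-fold). Both coat proteins stayed at or above their e17.5 level at every later stage. Bscl2, the gene of seipin, which shapes nascent droplets at the endoplasmic reticulum, had 13.24 at e17.5, against 12.02 at e16.5. Fitm2, which helps fat bud from that membrane, had 10.82 at e17.5, against 9.78 at e16.5. Plin2 and Plin3, coat proteins of cells in general, differed by less than 1 log2 (0.77 and -0.04).

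The lipases differed together with their restraints. Of 16 lipolysis genes on the array, 7 were under 7.5 at both stages. Of the 9 kept, 6 were higher by 1 log2 or more, none was lower, and the median was 1.11. Pnpla2, the first lipase of triglyceride breakdown, had 12.74 at e17.5, against 9.96 at e16.5 (6.89-fold). G0s2, the inhibitor of that lipase, had 12.20 at e17.5, against 10.29 at e16.5 (3.76-fold). Mgll, the lipase of the last step, had 9.73 at e17.5, against 8.62 at e16.5. Enzyme and inhibitor were thus both higher on the e17.5 array. They parted at e18.5, where Pnpla2 read 14.22 and G0s2 10.29, the same as at e16.5. Aqp7, the channel through which glycerol leaves the fat cell, had 9.36 at e17.5, against 8.01 at e16.5. Hcar1, a lactate receptor that restrains lipolysis, had 9.50 at e17.5, against 8.47 at e16.5. Lipe, hormone-sensitive lipase, had 8.28 at e17.5 and was under 7.5 at e16.5, a difference of at least 1.72-fold.

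**Figure D2:**
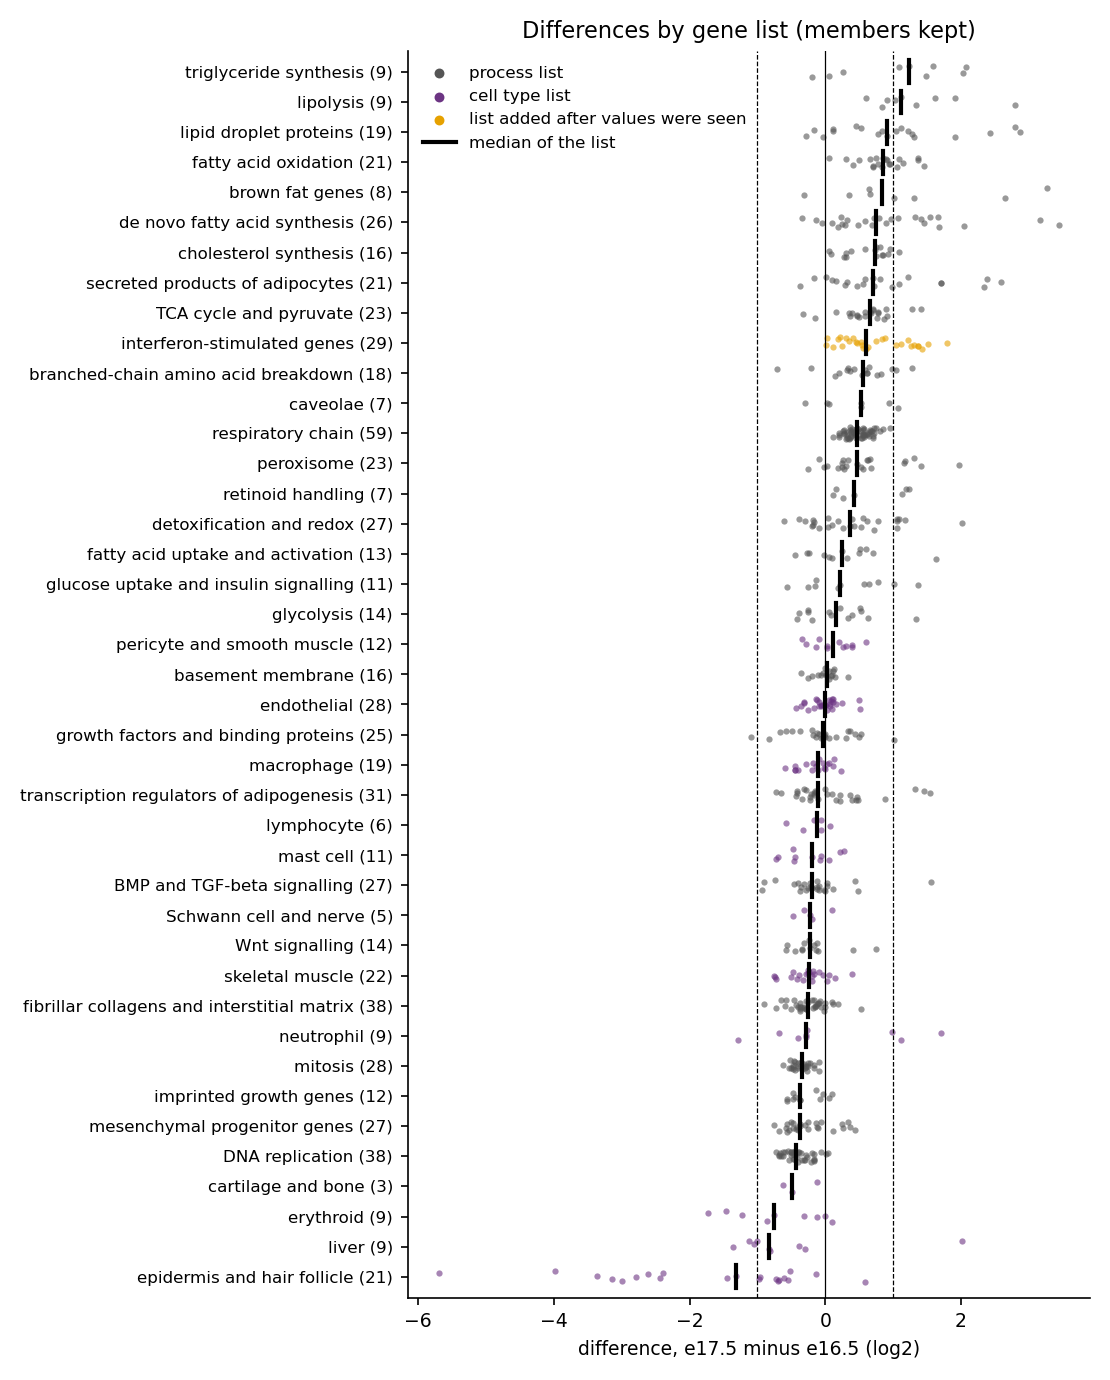
Difference between e17.5 and e16.5 (horizontal axis, log2) for each kept member of each gene list with 3 or more such members, with the number kept in brackets, a thick bar at the list median and dashed lines at 1 log2 either way. Triglyceride synthesis (median 1.23) and lipolysis (1.11) lie at the top, and the erythroid (-0.75), liver (-0.83) and epidermis (-1.31) marker lists at the bottom.

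Enzymes that build triglyceride from glycerol showed the highest list median, 1.23. Of 19 on the array, 10 were under 7.5 at both stages, and 6 of the 9 kept were higher by 1 log2 or more. Those 6 cover successive steps of the pathway. Gpd1, which makes glycerol 3-phosphate, had 10.53 at e17.5, against 8.94 at e16.5 (3.00-fold). Gpat3, which adds the first fatty acid, had 11.04 at e17.5, against 9.0 at e16.5 (4.10-fold). Agpat2, which adds the second, had 10.57 at e17.5, against 8.50 at e16.5 (4.20-fold). Lpin1, the phosphatidate phosphatase that follows, had 9.17 at e17.5, against 7.94 at e16.5. The final acylation is shared by Dgat1 and Dgat2. Dgat1 had 8.82 at e17.5, against 7.74 at e16.5, and Dgat2 had 11.76, against 10.28. Dgat2 had already read 10.80 at e15.5. The relatives Agpat4, Agpat5 and Gpat4 differed by -0.20, 0.06 and 0.26, so the acyltransferases on the array were not higher as a family. Outside this list, Chpt1, which makes phosphatidylcholine, had 9.94 at e17.5, against 8.21 at e16.5, and Lpcat3, which remodels it, had 11.28, against 10.16.

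Fatty acid synthesis included some of the largest positive differences. Thrsp, the nuclear protein Spot 14 that goes with lipogenesis in liver and fat, had 10.52 at e17.5 and was near the floor, at 7.08, at e16.5, a difference of at least 8.12-fold. Scd1, the desaturase that makes oleic acid, had 11.53 at e17.5, against 8.37 at e16.5 (8.97-fold). Of 30 synthesis genes on the array, 4 were under 7.5 at both stages. Of the 26 kept, 10 were higher by 1 log2 or more, none was lower, and the median was 0.75. These 10 include suppliers of the building block acetyl-CoA. Acss2, which makes it from acetate, had 10.32 at e17.5, against 8.28 at e16.5 (4.12-fold). Slc25a1, which exports citrate from mitochondria for this purpose, had 9.66 at e17.5, against 7.99 at e16.5. Aacs, which activates acetoacetate for lipid synthesis, had 10.66 at e17.5, against 8.99 at e16.5. Acaca, the carboxylase that commits acetyl-CoA to synthesis, had 11.27 at e17.5, against 9.81 at e16.5 (2.75-fold). Acly, which splits citrate, differed by 0.71, and the elongases Elovl1, Elovl5 and Elovl6 by -0.35, 0.23 and 0.10. Both were lower at P0 than at e18.5: Thrsp read 7.05, 7.08, 10.52, 11.24, 8.82, 9.44, 11.36 and 12.19 over the 8 stages, and Scd1 8.07, 8.37, 11.53, 13.44, 10.99, 11.40, 14.08 and 13.82. Cholesterol synthesis shared the direction at a smaller size. Of 19 on the array, 3 were under 7.5 at both stages, the 16 kept were all above 0, and only Insig1, a sterol sensor, passed 1 log2 (8.37 at e17.5 and under 7.5 at e16.5). The mean level of these 16 was 9.23 at e17.5, against 8.62 at e16.5, but it had already been 9.09 at e15.5. The e17.5 mean thus lay near that of the earliest stage, and the e18.5 mean was 9.14.

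**Figure D3:**
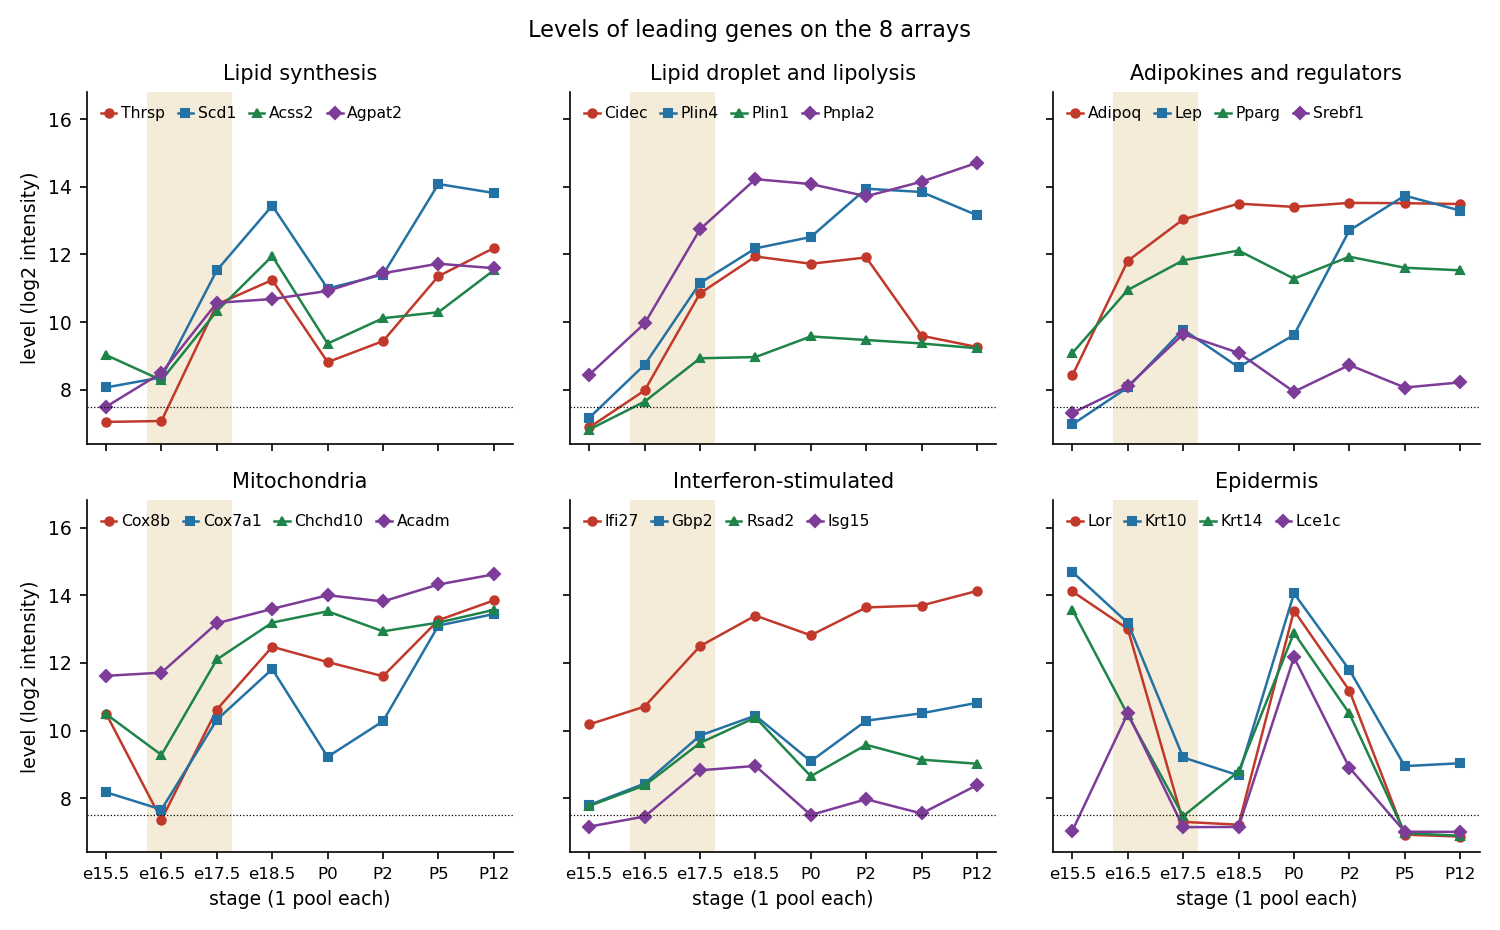
Levels (vertical axis, log2 intensity) of 4 genes per panel over the 8 stages (horizontal axis, 1 pool each, a point per array), with e16.5 and e17.5 shaded and a dotted line at 7.5. Lipid, mitochondrial and interferon-stimulated genes step up within the shading, Adipoq and Pparg have their larger step before it, and Lor, Krt10, Krt14 and Lce1c step down and are high again at P0.

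Among genes that could be read, uptake of fatty acids differed less than their synthesis. The probes of Cd36 on the uptake side and of Fasn on the synthesis side gave no level. Of 21 uptake and activation genes on the array, 8 were under 7.5 at both stages, and 1 of the 13 kept was higher by 1 log2 or more (median 0.25). That gene, Slc27a1, encodes an insulin-responsive fatty acid transporter and had 9.66 at e17.5, against 8.04 at e16.5 (3.09-fold). Mitochondrial fatty acid oxidation was higher along most of its steps. Of 23 on the array, 2 were under 7.5 at both stages, and of the 21 kept all were above 0 and 6 higher by 1 log2 or more (median 0.85). Acadm and Acadvl, which start the oxidation of medium and very long chains, had 13.17 and 10.30 at e17.5, against 11.71 and 8.95 at e16.5. Echs1, which carries out the next step, had 11.39 at e17.5, against 10.25 at e16.5. Acaa2, the thiolase that closes the cycle, had 9.96 at e17.5, against 8.92 at e16.5, but had already read 9.71 at e15.5. Cpt2, which returns fatty acids to CoA inside the mitochondrion, came close, at 0.96.

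The respiratory chain showed a small difference that every kept subunit shared. Of 71 on the array, 12 were under 7.5 at both stages. None of the 59 kept reached 1 log2, and all 59 were above 0 (41.3% of all features were), between 0.11 (Atp5g3) and 0.95 (Cyc1), with a median of 0.46. Of 28 genes of the tricarboxylic acid cycle and pyruvate use on the array, 5 were under 7.5 at both stages, and 2 of the 23 kept passed 1 log2. Pcx, which refills the cycle from pyruvate, had 8.70 at e17.5 and was under 7.5 at e16.5. Pdhb, a subunit of pyruvate dehydrogenase, had 10.49 at e17.5, against 9.21 at e16.5. Larger differences belonged to tissue-restricted mitochondrial proteins. Cox7a1, a cytochrome c oxidase subunit of muscle and brown fat, had 10.32 at e17.5, against 7.66 at e16.5 (6.29-fold). Cox8b, another such subunit, had 10.62 at e17.5 and 7.36 at e16.5, at least 8.70-fold. Chchd10, a protein of the mitochondrial intermembrane space, had 12.10 at e17.5, against 9.28 at e16.5 (7.07-fold). These genes are also expressed in skeletal muscle, whose 22 kept markers had a mean level of 8.80 at e17.5, against 9.05 at e16.5. None of the 22 was higher by 1 log2 or more, and the part of muscle in these differences was not tested. Cox8b, Chchd10 and Cox7a1 had already read 10.50, 10.49 and 8.18 at e15.5, where the muscle markers averaged 12.74.

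Brown fat genes divided at this step. Of 22 on the array, 14 were under 7.5 at both stages, and 4 of the 8 kept were higher by 1 log2 or more: Cox8b, Cox7a1, Cidea and Ppargc1b. Cidea, a droplet protein abundant in brown fat, had 8.23 at e17.5 and was under 7.5 at e16.5, at least 1.66-fold. It had read 7.80 at e15.5. Ucp1, the uncoupling protein that defines thermogenic fat, had 6.78 at both stages and first passed 7.5 at e18.5 (8.39). The probes of Prdm16, Dio2, Zic1 and Ppargc1a were under 7.5 at both stages.

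Glucose handling differed little. Of 23 genes of glucose uptake and insulin signalling on the array, 12 were under 7.5 at both stages. Of the 11 kept, Pik3r1, the regulatory subunit of PI 3-kinase, and Igf1 were higher by 1 log2 or more, and the median was 0.21. Slc2a4, the insulin-responsive glucose transporter GLUT4, had 8.09 at e17.5 and was under 7.5 at e16.5, a difference of at least 1.5-fold. Of 18 glycolysis genes, 4 were under 7.5 at both stages and 1 of the 14 kept passed 1 log2 (median 0.15). That gene, the aldolase Aldoa, had 11.99 at e17.5, against 10.64 at e16.5 (2.54-fold), but had already read 11.43 at e15.5. Of 10 genes of caveolae, the membrane pits dense on fat cells, 7 were kept and Cav2 alone passed 1 log2, at 9.28 at e17.5, against 8.21 at e16.5, while Cav1 differed by 0.52.

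Peroxisomes, where very long fatty acids are shortened, and amino acid breakdown each made up a class of 8 genes. Both classes were drawn up by hand from the genes past 1 log2 only, so these counts give no share of either pathway. Pex11a, which makes peroxisomes divide, had 11.21 at e17.5, against 9.24 at e16.5 (3.92-fold). Acaa1b, a peroxisomal thiolase, had 9.66 at e17.5, against 8.25 at e16.5, and Abcd2, an importer of very long acyl chains, had 8.77 at e17.5 and was under 7.5 at e16.5. Of 30 peroxisome genes on the array, 7 were under 7.5 at both stages and 5 of the 23 kept were higher by 1 log2 or more (median 0.46). A pair of enzymes at the end of tyrosine breakdown differed alike. Fah, the last enzyme, had 11.62 at e17.5, against 9.28 at e16.5 (5.07-fold), and Gstz1, the one before it, had 12.86, against 10.84 (4.05-fold). Gpt, alanine aminotransferase, had 10.13 at e17.5, against 7.73 at e16.5 (5.30-fold). Cdo1, which oxidizes cysteine on the way to taurine, had 12.89 at e17.5, against 10.98 at e16.5 (3.76-fold). Breakdown of branched-chain amino acids, a fuel of fat cells, differed less. Of 23 on the array, 5 were under 7.5 at both stages, and 2 of the 18 kept were higher by 1 log2 or more, Pcca (1.27) and Dbt (1.04), with a median of 0.56.

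Several secreted products of fat cells were higher at e17.5. Of 36 on the array, 15 were under 7.5 at both stages. Of the 21 kept, 7 were higher by 1 log2 or more and none lower, with a median of 0.70. Adig, adipogenin, a small fat cell protein kept in this list, had 11.66 at e17.5, against 9.07 at e16.5 (6.03-fold). Orm1, an acute-phase plasma protein, had 11.28 at e17.5, against 8.91 at e16.5 (5.19-fold), but had already read 10.83 at e15.5. Apoc1, an apolipoprotein, had 12.56 at e17.5, against 10.23 at e16.5 (5.05-fold). Adiponectin and leptin, the best known hormones of fat, followed different courses. Lep had 9.78 at e17.5, against 8.07 at e16.5 (3.27-fold), and over the 8 stages it read 6.98, 8.07, 9.78, 8.67, 9.62, 12.71, 13.74 and 13.29. Adipoq had 13.04 at e17.5, against 11.81 at e16.5 (2.34-fold), and stayed between 13.40 and 13.52 at all later stages. Leptin at e17.5 was thus below its levels at P2, P5 and P12, and adiponectin within 1 log2 of all its later levels. Angptl8, a secreted regulator of lipoprotein lipase, had 9.93 at e17.5, against 7.67 at e16.5 (4.79-fold), a level above those of all other stages. Igf1, the growth factor, had 10.34 at e17.5, against 9.33 at e16.5, and Igfals, its carrier in blood, had 8.63 and was under 7.5 at e16.5.

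A pair of promoters is shown because their genes mark the lipogenic and the hormonal side of the step. Each is the 250 bases before the RefSeq start in GRCm38.p6, read 5′ to 3′ on the strand of the gene. Thrsp lies at chr7:97417551-97417800 on the minus strand, with capitals at 2 CCAAT letters, 1 of them on the other strand as ATTGG. Lep lies at chr6:29059971-29060220 on the plus strand, with capitals at the C/EBP core TTGCNNAA.
Thrsp: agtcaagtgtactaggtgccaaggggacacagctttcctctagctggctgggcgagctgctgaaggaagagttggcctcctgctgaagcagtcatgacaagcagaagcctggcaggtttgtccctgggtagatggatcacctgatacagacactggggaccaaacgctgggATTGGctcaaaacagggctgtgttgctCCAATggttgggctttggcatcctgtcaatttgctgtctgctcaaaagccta
Lep: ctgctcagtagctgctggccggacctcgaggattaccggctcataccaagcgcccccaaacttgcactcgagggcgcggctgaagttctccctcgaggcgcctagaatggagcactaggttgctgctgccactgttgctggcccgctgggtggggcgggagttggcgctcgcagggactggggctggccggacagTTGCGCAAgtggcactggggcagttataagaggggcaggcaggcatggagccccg
Such letters are common in promoters. Of the 150 named genes higher by 1 log2 or more, 113 had a promoter entry. CCAAT, on either strand, occurred in 44 of these 113 (38.9%) and in 34.5% of all 27025 promoters. In the 32 lower genes with an entry it occurred in 13 (40.6%). TTGCNNAA or its reverse occurred in 15 of the higher genes (13.3%) and in 10 of the lower (31.2%), against 9.55% of all. The E-box CACGTG occurred in 7 of the higher genes (6.19%) and 1 of the lower (3.12%), against 6.05% of all. A match is a description of letters and not a site.

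Genes induced by interferons formed a further group higher at e17.5. Interferons signal through STAT factors to a response element in the promoters of antiviral genes, and the list of such genes was drawn up here after values had been seen. Of 48 on the array, 19 were under 7.5 at both stages. Of the 29 kept, 10 were higher by 1 log2 or more and none lower, all were above 0, and the median was 0.60. Ifi27, a mitochondrial and nuclear membrane protein, had 12.49 at e17.5, against 10.71 at e16.5 (3.45-fold). Gbp2, a guanylate-binding protein of cell defence, had 9.85 at e17.5, against 8.43 at e16.5 (2.68-fold). Rsad2, the antiviral enzyme viperin, had 9.63 at e17.5, against 8.38 at e16.5 (2.39-fold). The defence GTPases Igtp and Irgm2 shared the direction: Igtp had 9.14 at e17.5, against 7.78 at e16.5, and Irgm2 had 9.81, against 8.51. Isg15, a ubiquitin-like protein, had 8.82 at e17.5 and was under 7.5 at e16.5, at least 2.50-fold, and Usp18, which removes it from its targets, had 8.82 and was at least 2.49-fold higher. Over the 8 stages the 29 kept genes averaged 8.0, 8.34, 9.08, 9.30, 8.56, 8.97, 8.72 and 9.12, with the highest mean at e18.5 and a lower one at P0. Of the transducers, Irf9 differed by 0.54, Stat2 by 0.35 and Irf1 by 0.19. The kept markers of macrophages had a median difference of -0.11 and those of lymphocytes of -0.12, none of them past 1 log2 in either direction.

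The response element, GAAA, 2 free bases and GAAA again, was searched on both strands of these promoters, and 4 of them are shown because they hold it. Capitals mark the matches, which read TTTC, 2 free bases, TTTC where they lie on the other strand. Isg15 lies at chr4:156200819-156201068 (minus strand), with 3 matches that share letters. Ifit3 lies at chr19:34583279-34583528 (plus strand), Rsad2 at chr12:26456453-26456702 (minus strand) and Igtp at chr11:58199306-58199555 (plus strand).
Isg15: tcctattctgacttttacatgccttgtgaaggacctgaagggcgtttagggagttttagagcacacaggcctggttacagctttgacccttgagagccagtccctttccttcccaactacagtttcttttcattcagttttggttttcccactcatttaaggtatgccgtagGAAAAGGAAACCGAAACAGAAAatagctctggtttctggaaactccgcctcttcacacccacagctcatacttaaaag
Ifit3: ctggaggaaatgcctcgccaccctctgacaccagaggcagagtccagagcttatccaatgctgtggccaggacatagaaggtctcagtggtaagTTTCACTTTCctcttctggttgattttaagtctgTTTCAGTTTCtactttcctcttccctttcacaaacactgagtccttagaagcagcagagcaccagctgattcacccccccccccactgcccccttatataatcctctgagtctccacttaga
Rsad2: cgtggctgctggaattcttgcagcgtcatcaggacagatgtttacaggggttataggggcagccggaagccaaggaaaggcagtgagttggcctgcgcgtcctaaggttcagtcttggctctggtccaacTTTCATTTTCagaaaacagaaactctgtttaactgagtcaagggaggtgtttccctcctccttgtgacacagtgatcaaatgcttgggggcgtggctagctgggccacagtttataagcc
Igtp: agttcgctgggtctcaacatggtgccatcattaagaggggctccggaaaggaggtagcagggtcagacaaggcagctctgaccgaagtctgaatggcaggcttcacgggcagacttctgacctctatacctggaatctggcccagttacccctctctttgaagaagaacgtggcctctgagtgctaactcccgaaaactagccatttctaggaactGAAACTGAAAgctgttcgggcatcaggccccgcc
The match nearest the start began 66 bases before it in Isg15, 122 in Ifit3, 120 in Rsad2 and 34 in Igtp. Of the 10 interferon-stimulated genes past 1 log2, 8 had a promoter entry, and 7 of these 8 (87.5%) held the letters. Of the 24 kept list genes with an entry, 11 (45.8%) held them. The list holds genes known to answer through this element and was drawn up after values had been seen, so these shares test nothing. The letters occurred in 8 of the 113 higher genes with an entry (7.08%), in none of the 63 adipocyte genes with one, and in 821 of all 27025 promoters (3.04%). Of those 8 higher genes, 7 are the interferon-stimulated genes just counted, so 7.08% is not a further result.

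Genes of dividing cells were slightly lower at e17.5, each by less than 1 log2. Of 45 mitosis genes on the array, 17 were under 7.5 at both stages. The 28 kept were all below 0 (58.5% of all features were), between -0.62 and -0.09, with a median of -0.35. Top2a, which untangles chromosomes, had 10.55 at e17.5, against 11.17 at e16.5, and Cdk1, the kinase that starts mitosis, had 10.11, against 10.52. Of 49 DNA replication genes, 11 were under 7.5 at both stages, and 36 of the 38 kept were below 0 (median -0.43). Mcm4, part of the replicative helicase, had 11.79 at e17.5, against 12.51 at e16.5. Progenitor and matrix genes leaned the same way. Of 43 progenitor genes on the array, 16 were under 7.5 at both stages and 21 of the 27 kept were below 0 (median -0.38). Pdgfra, a receptor of fat cell progenitors, had 10.41 at e17.5, against 10.84 at e16.5. Dlk1, the preadipocyte inhibitor Pref-1, had 14.18 at e17.5, against 14.56 at e16.5, and Col1a1, of fibrillar collagen, had 13.14, against 13.51. No kept member of the mitosis, replication, progenitor or collagen list passed 1 log2. Matrix genes gave a median of -0.26 over the 38 kept of 48 on the array, and basement membrane genes 0.03 over 16 of 25. Wnt signalling (median -0.23 over 14 of 41) and imprinted growth genes (-0.38 over 12 of 21) likewise held no member past 1 log2. Growth factors and their binding proteins were level at -0.04 over 25 of 40, with Igf1 higher and Igfbp6 lower. The mitosis mean was 9.36 at e17.5, against 9.71 at e16.5, and lower at every later stage.

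**Figure D4:**
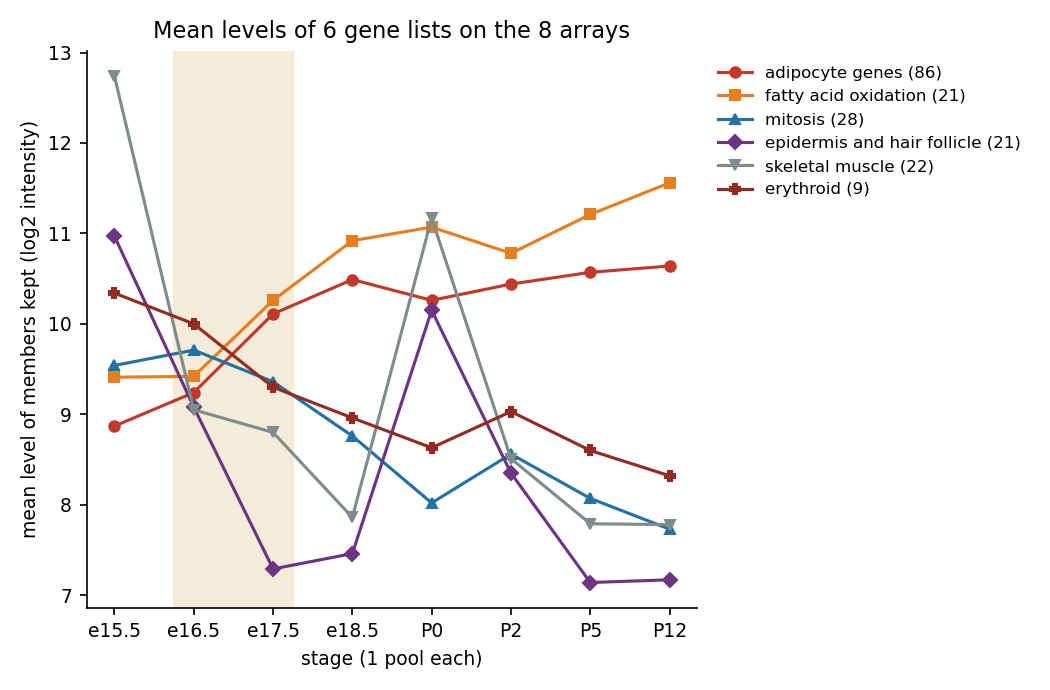
Mean level of the kept members of 6 gene lists (vertical axis, log2 intensity) over the 8 stages (horizontal axis, 1 pool each, number of genes in brackets), with e16.5 and e17.5 shaded. Adipocyte genes average 10.11 at e17.5, against 9.24 at e16.5, fatty acid oxidation genes 10.26, against 9.42, and epidermis markers 7.29, against 9.08; muscle and epidermis markers are high at e15.5 and again at P0.

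Of the 44 features lower by 1 log2 or more, 19 were genes of the cornified layer or of keratinocytes, the cells of the skin surface. Lor, loricrin, the main protein of the cornified envelope, had 7.30 at e17.5 and 13 at e16.5, at least 45.4-fold lower. Krt10, a keratin of differentiating keratinocytes, had 9.2 at e17.5, against 13.18 at e16.5 (15.7-fold). Krt14, a keratin of basal keratinocytes, had 7.47 at e17.5 and 10.46 at e16.5, at least 7.80-fold lower. For the basal layer this rests on Krt14. Krt15 had 6.99 at e17.5, against 7.51 at e16.5, and Krt5 was under 7.5 at both stages. Trp63, a further epidermis marker, was higher, at 8.21 at e17.5, against 7.62 at e16.5. Of 56 epidermis and hair follicle markers on the array, 35 were under 7.5 at both stages. Of the 21 kept, 11 were lower by 1 log2 or more and none higher, with a median of -1.31. Their summed linear intensity was 3640 at e17.5, against 27900 at e16.5. The markers were high again at P0: Lor read 14.11, 13, 7.30, 7.22, 13.55, 11.18, 6.92 and 6.87 over the 8 stages. The late cornified-envelope family went another way at e15.5, with Lce1c at 7.04, 10.51, 7.14, 7.15, 12.16, 8.90, 7.01 and 7.0. Lce1a2, Lce1b, Lce1c, Lce1d and Lce1m are close copies, and their probes may not be separate measurements. In a whole tissue, fewer cells of a type and less RNA per cell cannot be told apart. The part of the skin markers in the differences of other genes was not tested.

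Blood and liver transcripts made up 7 more of the lower features. Hbb-y, an embryonic globin, had 7.67 at e17.5, against 9.40 at e16.5 (3.31-fold). Slc4a1, the anion exchanger of red cells, had 9.74 at e17.5, against 11.20 at e16.5, and Alas2, the first enzyme of their haem synthesis, had 11.01, against 12.23. Hba-a1, of the adult alpha globin, read 15.05 at both stages, near the top of the scale. Of 25 erythroid markers on the array, 16 were under 7.5 at both stages and the 9 kept had a median of -0.75 and summed intensities of 39000 at e17.5, against 44600 at e16.5. Hba-a1 alone made up 33900 of each sum, and without it the sums were 5040 at e17.5, against 10700 at e16.5. Globin genes are near-identical copies, so single members are uncertain. Among plasma proteins of the liver, Apoa2 had 9.58 at e17.5, against 10.94 at e16.5, Ambp 8.34, against 9.46, and Serpina1b and Serpina1d, close copies, 8.59 and 8.31, against 9.64 and 9.32. Of 14 liver markers on the array, 5 were under 7.5 at both stages, Alb and Afp, the defining ones, among them. The named Alb and Afp probes did not reach 7.5 at any of the 8 stages, so they give no level for these genes. The 9 kept had a median of -0.83, with 3 lower and 1 higher by 1 log2 or more. Trf, transferrin, is in the liver list but was higher, at 13.87 at e17.5, against 11.87 at e16.5 (4.02-fold). The part of these transcripts in other differences was not tested.

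Markers of the remaining cell types differed little. Of 57 muscle markers on the array, 35 were under 7.5 at both stages. None of the 22 kept passed 1 log2 (median -0.24), and their summed intensity was 15300 at e17.5, against 18300 at e16.5. None of the kept endothelial (28), pericyte (12), mast cell (11), macrophage (19), lymphocyte (6), cartilage (3) or Schwann cell (5) markers passed 1 log2, with medians between -0.49 and 0.12. Of 9 kept neutrophil markers, Hp and Camp were higher and Stfa1 was lower. Hp, haptoglobin, is also a product of fat cells. Stfa1, a stefin, had 10.33 at e17.5, against 11.62 at e16.5, and Camp, an antimicrobial peptide, had 8.73, against 7.61. Of the melanocyte list 1 marker was kept, at a difference of -0.04, and none of 17 glandular epithelium markers reached 7.5. The other lower genes included Igfbp6, a binding protein of insulin-like growth factors (8.83 at e17.5, against 9.91 at e16.5), and Scara5, a ferritin receptor of stromal cells (8.79, against 9.86). Ccl21a, a chemokine of lymphatic vessels, had 8.13 at e17.5, against 9.13 at e16.5.

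The same features were then read on e18.5 and e15.5, a pair of arrays that the first difference does not use. Of the 166 features higher at e17.5, 165 (99.4%) were higher at e18.5 than at e15.5, 155 of them (93.4%) by 1 log2 or more. The median was 2.31, and 47.5% of all 6993 features were higher, 8.39% by 1 log2 or more. Of the 44 lower, 42 (95.5%) were lower at e18.5 than at e15.5, 32 (72.7%) by 1 log2 or more. The median was -2.03, and 52.5% of all features were lower, 5.12% by 1 log2 or more. The exceptions were Pde4dip on the higher side, and Lce1c and a probe without a name on the lower. Lce1a2, Lce1b, Lce1d and Lce1m were near the floor at both e18.5 and e15.5. They differed by only -0.05 to -0.01 and count as lower by sign alone. Pde4dip, a scaffold of muscle and centrosomes, had 9.47 at e18.5, against 11.76 at e15.5. The pair also differs in other tissues. Muscle markers averaged 7.86 at e18.5 and 12.74 at e15.5, against 8.80 at e17.5 and 9.05 at e16.5, and epidermis markers 7.46 and 10.97, against 7.29 and 9.08. The part of these tissues in the shares was not tested. The shares describe 4 pools along a developmental course and give no error.

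**Figure D5:**
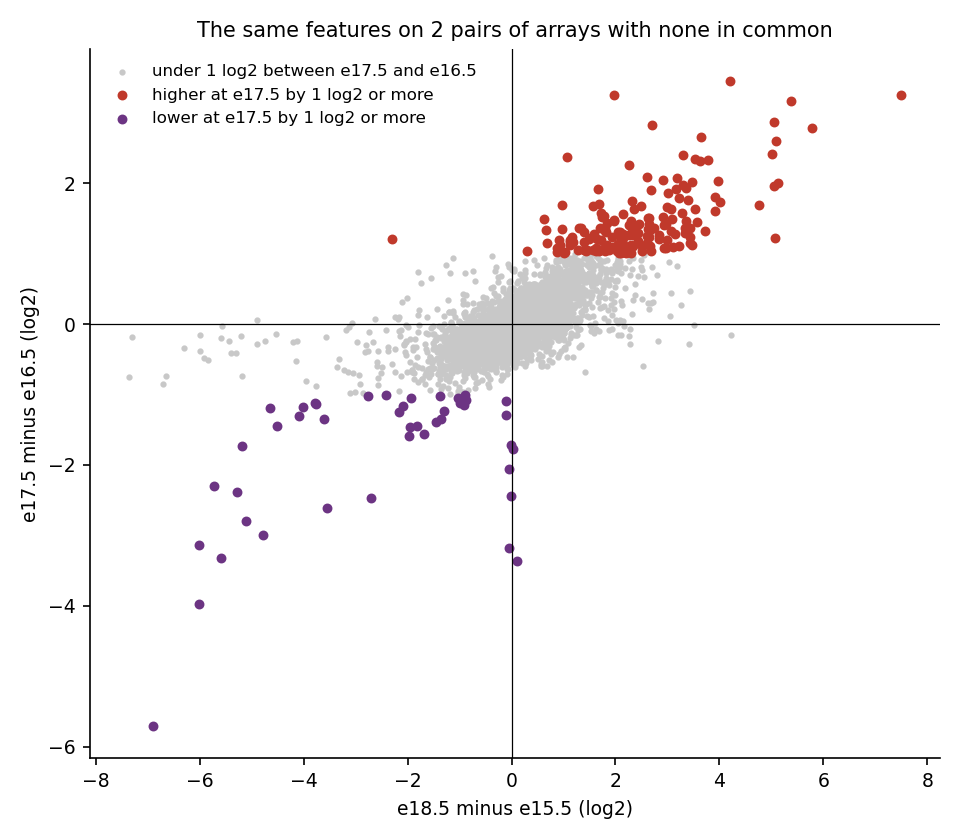
Difference between e17.5 and e16.5 (vertical axis, log2) against the difference between e18.5 and e15.5 (horizontal axis, log2) for the 6993 features, from 4 arrays of 1 pool each. Red points, 166 features higher at e17.5, lie to the right of 0 except for Pde4dip, and purple points, 44 features lower at e17.5, lie at or to the left of 0 but for Lce1c and 1 unnamed probe just right of it.

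Some genes past 1 log2 were read by more than 1 probe. Other probes at 7.5 or more on both arrays numbered 33, of which 32 differed in the same direction and 22 by 1 log2 or more. Over all kept genes, 77.9% of 1494 such probes went in the direction of the first. A further 24 probes reached 7.5 on 1 array only, which bears on their direction, and are not counted. The second Scp2 probes read 12.29 and 9.98 at e17.5, against 10.82 and 8.21 at e16.5, beside 12.69, against 11.42, for the first. The probe that went the other way belonged to Pde4dip, at 8.61 at e17.5, against 8.74 at e16.5. Probes of a gene share the pool and the array, so this speaks to the probes and not to the stages. Functions could be given to 116 of the 166 higher features and 26 of the 44 lower, in classes drawn up after values had been seen. Of the rest, 34 higher and 9 lower were named genes outside the classes, and 16 higher and 9 lower are unnamed here. The brightest of these, ILMN_2835423, had 14.87 at e17.5, against 11.61 at e16.5 (9.56-fold), and had been near the floor, at 7.26, at e15.5. Car3, the carbonic anhydrase abundant in fat, had 14.40 at e17.5, against 13.09 at e16.5 (2.48-fold). Clstn3, calsyntenin 3, had 10.21 at e17.5, against 8.12 at e16.5 (4.26-fold), and S100a1, a calcium-binding protein, had 10.86, against 9.10 (3.38-fold).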

How the data were processed

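The series holds 8 arrays of pooled developing fat, 1 per stage. The values used are the deposited log2 intensities of the authors' value table, made from BeadStudio output, per the labels' protocols. The log base was read from their range, 6.66 to 15.1. How background and normalization were handled is not given in the sources used here. The sorted values of the 8 columns agree to within 0.00348, so all arrays have 1 distribution (median 6.99) and a difference in total signal cannot be seen. A second deposited table was not used: its 16 per-sample columns match no label.

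Probes were named from the platform annotation: 23978 have 1 symbol and 1719 none. Each gene is represented by 1 probe, the brightest on average across the stages. Features at 7.5 or more at e17.5 or e16.5 were kept, and a difference of 1 log2 or more was counted, with no test, because each stage is 1 pool. At e17.5 8318 probes reached 7.5 and at e16.5 8320 did, and the single pools limit the precision. Levels under 7.5 count as near the floor, and folds against them are lower bounds computed from 7.5.

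Of 42 gene lists, 28 cover processes and 14 cell types, and the list of interferon-stimulated genes was added to them later. With that list included, 141 of 1367 symbols were unmatched, and lists share members. Adipocyte genes are the droplet, triglyceride, uptake, synthesis and secreted lists, each gene once. Members, lists, classes and rules were chosen with earlier results of these data known. Named genes are the 15 largest differences each way among genes at 7.5 or more on both arrays, the 10 largest each way from or to below 7.5, up to 5 per list, and 24 fixed adipose genes. Clones and gene models are skipped in the rankings. Others are examples chosen after their values were seen. Promoters are from RefSeq (GRCm38.p6), 250 bases before each start. Alternatives changed the minimum level, the size, the choice of probe, the centring, the floor and the cell type markers. Scripts (Python 3.11.15, pandas 2.3.3, numpy 2.4.6) were tested on simulated data.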

Additional observations from a re-analysis of the deposited data

How the results depend on the processing

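Each stage is 1 pool, so no setting could leave out a replicate, and no alternative gives an error. No paired analysis was possible because no stage has more than 1 array. The count of 166 higher features lay between 145 and 198 under other minimum levels, probe rules, centring, a floor at 7.5 and without cell type markers, and came to 52 at 1.5 log2 and 22 at 2 log2. The count of 44 lower features lay between 36 and 47 under the other alternatives, but was 20 with 7.5 required on both arrays, 26 without cell type markers, 19 at 1.5 log2 and 14 at 2 log2. The first of these leaves out features that were near the floor at e17.5. The median of adipocyte genes, 0.70, was 0.77 with a minimum of 8, 0.25 with no minimum and 0.59 with every probe counted. With no minimum, members near the floor on both arrays enter the median. The median of mitosis genes, -0.35, was -0.36 with a minimum of 8, -0.25 with no minimum and -0.33 with the mean of all probes. The share of features in the same direction between e18.5 and e15.5, 98.6% over both directions, lay between 96.4% and 99.4%. No direction turned under any alternative run for these results. Equalized arrays and dim probes limit sizes: differences near the floor are compressed.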

Other observations

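Receptors and their partners made up 9 of the genes higher at e17.5 by 1 log2 or more. The class was drawn up by hand from those genes only, so it gives no share of all receptors on the array. The melanocortin 2 receptor, through which corticotropin acts on mouse fat cells, and the accessory protein that carries it to the cell surface were both among them. Mrap, the accessory protein, had 10.79 at e17.5, against 8.82 at e16.5 (3.90-fold), and read 7.17 at e15.5. Mc2r, the receptor, had 8.14 at e17.5 and was under 7.5 at e16.5, at least 1.56-fold. The fatty acid receptors Ffar2 and Ffar4 shared the direction. Ffar2, which senses short chains, had 9.88 at e17.5, against 8.73 at e16.5, and Ffar4, which senses long chains, had 9.31, against 8.08. Acvr1c, the activin receptor ALK7 of fat cells, had 9.23 at e17.5, against 7.68 at e16.5 (2.94-fold). It was the only member past 1 log2 of 27 kept in the BMP and TGF-beta list. Of all features, 2.37% were higher by as much. Klb, the co-receptor of FGF21, had 8.76 at e17.5, against 7.73 at e16.5, and Adipor2, an adiponectin receptor, had 11.76, against 10.74. Fgf21 itself was under 7.5 at both stages.

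Enzymes of detoxification and retinoid handling made up 10 more, in a class drawn up the same way. Of 40 detoxification and redox genes on the array, 13 were under 7.5 at both stages and 6 of the 27 kept were higher by 1 log2 or more (median 0.37). Mgst1, a membrane glutathione transferase, had 13.08 at e17.5, against 11.99 at e16.5, and Prdx3, the mitochondrial peroxiredoxin, had 11.20, against 10.15. Gpx1, the main cytosolic glutathione peroxidase, was at 13.12 at e17.5, against 13.73 at e16.5, a difference under 1 log2. Nnmt, which methylates nicotinamide, had 11.71 at e17.5, against 10.39 at e16.5 (2.50-fold). Among retinoid genes, Retsat, which saturates retinol, had 10.74 at e17.5, against 9.60 at e16.5, and Rbp7, a retinol-binding protein, had 9.88, against 8.69. Rbp7 stayed above 10 from e18.5 to P5 but read 6.92 at P12. Of 23 retinoid genes on the array, 16 were under 7.5 at both stages and 3 of the 7 kept were higher by 1 log2 or more.

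Some genes were highest at e17.5 among the 8 stages. Srebf1 read 7.32, 8.11, 9.64, 9.09, 7.94, 8.73, 8.07 and 8.22, and Nrn1, neuritin, read 8.84, 8.19, 9.88, 9.81, 8.93, 8.82, 8.37 and 8.21. Pik3r1, the regulatory subunit of PI 3-kinase, had 12.13 at e17.5, against 10.76 at e16.5, and later pools lay between 11.05 and 11.79. Its second bright probe had 12.17 at e17.5, against 10.83 at e16.5.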
